A study of Mus musculus with 12 samples.

Results

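Transcripts of 33 genes of the lysosome were followed in primary mouse vascular smooth muscle cells after silencing of Thoc5 and in RNA that coprecipitated with Thoc2 or Thoc5. The genes were taken by symbol from a fixed list of lysosomal enzymes, membrane proteins and their transcriptional regulator Tfeb, and all 33 were found among the 26301 genes of the RNA-seq table. The cells came from the aorta of 6-week-old C57BL/6 mice. The hairpin conditions by RNA-seq were a control hairpin (shNT, n = 2 libraries) and a hairpin against Thoc5 (shThoc5, n = 2 libraries), both at passages 4 to 8 and 4 days after infection. In the RNA immunoprecipitation experiment (RIP-seq), cells for which the labels name no hairpin were studied at passage 3 and at passage 10, with 1 input, 1 Thoc2 and 1 Thoc5 library at each passage. Both silenced libraries carry the same hairpin number in the labels, and the labels do not state whether replicate libraries were made from different animals or cultures. The cells are an unsorted primary culture from digested aorta.

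Lysosomes are acidic organelles in which hydrolases break down proteins, glycans, glycosaminoglycans and lipids that arrive by endocytosis and autophagy. Most of the soluble enzymes reach the lysosome through a mannose 6-phosphate tag added in the Golgi, and the membrane proteins Lamp1 and Lamp2 make up much of the organelle's limiting membrane. Tfeb, a member of the MiT/TFE family, is held in the cytoplasm when mTORC1 is active and otherwise drives many lysosomal genes through E-box motifs near their start sites. In vascular smooth muscle cells, lysosomes degrade lipoprotein-derived cholesteryl esters and extracellular matrix taken up from the vessel wall, and cathepsins S, K and L are known as secreted elastases and collagenases. Thoc2 and Thoc5 belong to the THO complex, which acts in the packaging of nascent mRNA and its export from the nucleus.

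RefSeq promoter sequences (GRCm38.p6) were at hand for 30 of the 33 genes. The 250 bases before the start were searched on both strands for the palindromic E-box CACGTG and for the longer form GTCACGTG, which contains it. CACGTG was found before 11 of the 30 genes (36.7%), against 1854 of 27025 genes with a promoter sequence (6.86%). These were Ctsd, Ctsl, Lgmn, Ctsa, Gaa, Gla, Glb1, Naglu, Sgsh, Lamp1 and Mcoln1. GTCACGTG was found before 9 of the 30 (30%), against 2.11% of all. A match is a description of the letters in the window and not a bound site.

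The last 120 bases before the start are shown for 5 genes with the motif, from the gene with the most copies to genes with 1, and for Ctsk, which had none in the window. Capitals mark CACGTG, and each sequence is read 5′ to 3′ on the gene's own strand. The windows are chr8:13159041-13159160 (plus strand) for Lamp1, chr8:3500399-3500518 (plus strand) for Mcoln1 and chr7:142387828-142387947 (minus strand) for Ctsd. Those of the others are chr9:114400958-114401077 (plus strand) for Glb1, chr11:119355511-119355630 (minus strand) for Sgsh and chr3:95499090-95499209 (plus strand) for Ctsk.
Lamp1: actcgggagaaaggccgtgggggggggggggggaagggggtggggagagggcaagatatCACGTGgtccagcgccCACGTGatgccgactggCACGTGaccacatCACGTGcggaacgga
Mcoln1: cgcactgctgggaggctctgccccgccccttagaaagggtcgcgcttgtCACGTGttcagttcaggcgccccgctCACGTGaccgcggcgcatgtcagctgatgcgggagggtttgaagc
Ctsd: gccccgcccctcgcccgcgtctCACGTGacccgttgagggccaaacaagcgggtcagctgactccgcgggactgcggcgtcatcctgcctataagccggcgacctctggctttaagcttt
Glb1: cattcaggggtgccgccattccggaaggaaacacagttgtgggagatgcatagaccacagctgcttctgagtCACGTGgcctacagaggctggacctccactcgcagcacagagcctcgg
Sgsh: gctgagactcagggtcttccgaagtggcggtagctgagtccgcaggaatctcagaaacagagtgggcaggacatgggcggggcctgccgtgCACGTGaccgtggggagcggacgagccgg
Ctsk: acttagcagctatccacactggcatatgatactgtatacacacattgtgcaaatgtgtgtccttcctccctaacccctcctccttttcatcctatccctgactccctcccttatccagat
Lamp1 held 4 copies within 61 bases of the start, and Mcoln1 held 2, the nearest at 45 bases before it. Ctsd had a further copy outside the window shown, 245 bases before the start.

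The RNA-seq libraries held 15819207 to 21037732 counted reads. The RIP-seq libraries held 5396291 (Thoc2) and 5975866 (Thoc5) reads at passage 3 against 36336141 in the input, and 9364965 to 19038973 reads at passage 10. Ribosomal RNA took 18.0% of the passage 3 Thoc2 library, 6.74% of the passage 3 Thoc5 library and at most 1.60% of the others. The targeted gene Thoc5 stood at 33.7 and 40.2 CPM (reads per library size after TMM scaling) in shNT and at 7.25 and 5.66 CPM in shThoc5. Its log2 fold change was -2.51, yet in the main test over all genes (edgeR's quasi-likelihood test) its adjusted p was 0.499, while DESeq2 gave an adjusted p of 6.67e-15. Smooth muscle markers summed to 2970 to 7688 CPM over 8 markers across the libraries, with unequal parts. In the passage 3 and passage 10 inputs Acta2 stood at 2091 and 4549 CPM and Tagln at 2194 and 1359 CPM. Myh11 stood at 6.72 and 3.05 CPM there, and 1 of the 8 was at 0 or unlisted in each RIP-seq library.

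The lysosomal genes covered a wide range of levels in the control cells. Levels are compared per length, as the mean CPM of the shNT libraries per kilobase of the gene length in the authors' deposited table. Ctsd, the main aspartic protease of the lysosome, stood highest at 1453 CPM per kilobase. It was followed by Psap at 527, the precursor of the saposins that help to degrade sphingolipids, by Lamp1 at 440 and by Ctsl, a cysteine protease, at 403. Hexa, the alpha subunit of beta-hexosaminidase A, led the glycosidases at 203 CPM per kilobase, while Gla, the alpha-galactosidase that clears globotriaosylceramide, was their lowest at 6.35. The 5 enzymes of glycosaminoglycan degradation lay between 13.7 and 37.4 CPM per kilobase. Tfeb was the lowest of the 32 genes tested, at 2.89 CPM per kilobase. Ctss, a cysteine protease typical of macrophages, was at 0 and 0.147 CPM in shNT and at 0.0486 and 0 CPM in shThoc5, and it was the only listed gene that did not pass the filter on low counts.

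After silencing of Thoc5, no lysosomal gene passed the test. In edgeR 0 of the 32 tested genes were called higher and 0 lower at an adjusted p of 0.05, where 0% of the 13569 genes tested were called. DESeq2 called 0 of the 32, against 0.455% of the genes to which it gave an adjusted p, and limma-voom also called 0. At an unadjusted p under 0.05, 1 of the 32 was found in edgeR (4.8% of all genes), 1 in DESeq2 (3.16% of all genes) and 2 in limma-voom (4.76% of all genes). The median log2 fold change of the 32 genes was -0.10, beside 0.01 over all genes, and 22 of the 32 lay within 0.2 of 0. In the authors' deposited table the log2 fold changes of the same 32 genes ran from -0.56 to 0.38, and none had an adjusted p under 0.05. Since even Thoc5 was not called in edgeR, a p above the threshold in these 4 libraries does not show that a gene was unaffected, and an exact permutation test of 2 libraries against 2 cannot give a two-sided p below 0.333.

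**Figure D1:**
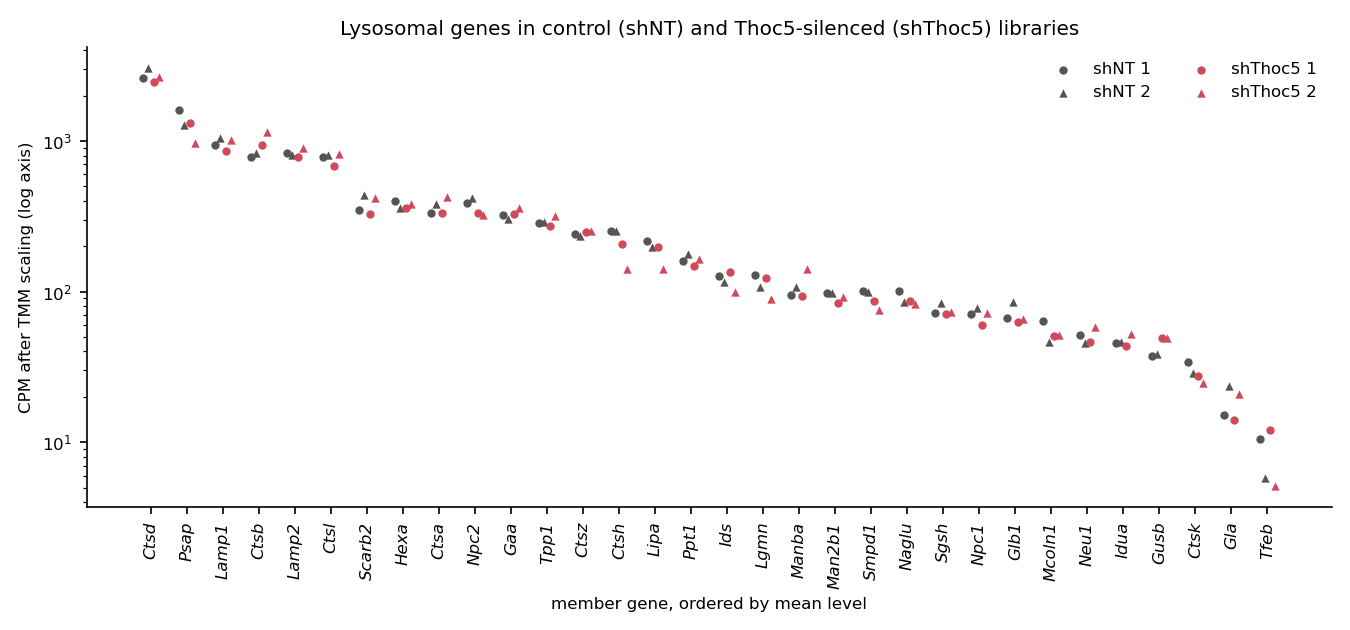
Level of each tested lysosomal gene in the 4 RNA-seq libraries, in CPM after TMM scaling on a log axis, with genes ordered by mean level, grey for shNT, red for shThoc5, circles for replicate 1 and triangles for replicate 2. For 22 of the 32 genes the groups overlap, and the steepest separation within a gene is between the replicates of Tfeb.

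Among the proteases, Ctsh and Ctsb differed in opposite directions. Ctsh, an aminopeptidase of the cathepsin family, stood at 252 and 252 CPM in shNT and at 207 and 140 CPM in shThoc5. Both silenced libraries were below both controls, with a log2 fold change of -0.54 ± 0.22 (SE, n = 2 against 2, edgeR adjusted p = 1.00, DESeq2 unadjusted p = 0.0281 and adjusted p = 0.848). Ctsb, a cysteine protease with carboxydipeptidase activity, stood at 781 and 829 CPM in shNT and at 935 and 1144 CPM in shThoc5. Both silenced libraries were above both controls, with a log2 fold change of 0.37 ± 0.18 (SE, edgeR adjusted p = 1.00). The span of Ctsb overlaps that of Fdft1, so its reads are less certain. Ctsk, known as the collagenase of bone resorption, stood at 34.3 and 29.0 CPM in shNT and at 27.7 and 24.6 CPM in shThoc5, which is lower in both silenced libraries (log2 fold change -0.28 ± 0.16, edgeR adjusted p = 1.00). Ctsd stood at 2626 and 3053 CPM in shNT and at 2470 and 2648 CPM in shThoc5, and Ctsl at 785 and 806 against 677 and 818 CPM. The groups overlapped for both of these abundant proteases and for Lgmn, the asparaginyl endopeptidase that processes other cathepsins. Ctsz, a carboxypeptidase, was above both controls in both silenced libraries, but at 242 and 235 against 247 and 253 CPM the gap was small. The serine peptidases Ctsa, which protects Neu1 and Glb1 in a complex, and Tpp1, which removes tripeptides, had log2 fold changes of 0.08 and 0.04 with overlapping groups.

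The lipid-handling genes were the role group with the lowest median. All 6 had a log2 fold change below 0, from -0.34 to -0.10 with a median of -0.29, but 0 of the 6 passed the test. The groups did not overlap for 2 of the 6. Over all genes, both silenced libraries were below both controls for 16.4% and above both for 16.2%. Smpd1, the acid sphingomyelinase, stood at 101 and 100 CPM in shNT and at 86.3 and 76.0 CPM in shThoc5 (log2 fold change -0.31 ± 0.14, SE, edgeR adjusted p = 1.00). Npc2, the soluble carrier that hands cholesterol to Npc1, stood at 388 and 420 CPM in shNT and at 333 and 324 CPM in shThoc5 (log2 fold change -0.30 ± 0.15, SE, edgeR adjusted p = 1.00). For both genes the silenced libraries were the lower pair. Psap had the lowest value of the group at -0.34, but at 1603 and 1275 CPM in shNT and 1312 and 964 CPM in shThoc5 its groups overlapped. Lipa, the acid lipase that hydrolyses cholesteryl esters, stood at 215 and 197 CPM in shNT and at 199 and 141 CPM in shThoc5, again with overlap. Ppt1, which removes palmitate from proteins, and Npc1, the membrane transporter of the cholesterol export pair, had log2 fold changes of -0.10 and -0.18.

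Gusb, the beta-glucuronidase of glycosaminoglycan degradation, had close replicates and separate groups. It stood at 37.5 and 38.7 CPM in shNT and at 49.2 and 49.4 CPM in shThoc5. Both silenced libraries were above both controls, with a log2 fold change of 0.37 ± 0.13 (SE, edgeR unadjusted p = 0.0354 and adjusted p = 1.00). The other enzymes of this group, Idua, Ids, Naglu and Sgsh, had overlapping groups and log2 fold changes from -0.13 to 0.05. Among the glycosidases, Glb1 (beta-galactosidase) stood at 66.5 and 84.8 CPM in shNT and at 62.8 and 65.3 CPM in shThoc5, and Man2b1 (alpha-mannosidase) at 98.4 and 98.4 against 84.3 and 92.1 CPM, both lower in the silenced libraries. Gaa, which degrades glycogen, was the opposite, at 325 and 304 against 329 and 358 CPM. In all, both silenced libraries were above both controls for 4 of the 32 genes, where 16.2% of all genes did so, and below both controls for 6, where 16.4% of all genes did so. These shares are near those of all genes.

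The membrane proteins were close to equal between the groups. Lamp1 stood at 941 and 1044 CPM in shNT and at 854 and 1020 CPM in shThoc5, and Lamp2 at 835 and 812 against 784 and 897 CPM. Scarb2, the receptor that carries glucocerebrosidase to the lysosome, and Mcoln1, the calcium channel of the lysosomal membrane, had log2 fold changes of -0.08 and -0.11. The groups overlapped for all 4. Tfeb stood at 10.5 and 5.79 CPM in shNT and at 12.1 and 5.10 CPM in shThoc5. The replicates within a group were farther apart than the groups, with a log2 difference of replicate 2 from replicate 1 of -0.81 in shNT and -1.17 in shThoc5, against a log2 fold change of 0.08 ± 0.49 (SE).

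Genes around these enzymes were read from 5 lists chosen with earlier results of these data known. In edgeR 0 of 17 subunits of the V-ATPase, the proton pump, were called, and likewise 0 of 33 other lysosomal proteins, 0 of 13 genes of sorting to lysosomes, 0 of 17 tested genes of the MiT/TFE and mTORC1 pathway and 0 of 25 autophagy genes. The medians of their log2 fold changes were -0.09, -0.07, -0.07, 0.03 and -0.01, beside 0.01 over all genes. In the V-ATPase list 15 of 17 values were below 0, the lowest being those of Atp6v0e (-0.35) and Atp6v0b (-0.26). One gene of sorting, Nagpa, was called by DESeq2 and not by edgeR. Nagpa is the uncovering enzyme that exposes the mannose 6-phosphate tag. It stood at 24.9 and 18.8 CPM in shNT and at 7.59 and 2.36 CPM in shThoc5, so both silenced libraries lay far below the controls. Its log2 fold change was -2.12 ± 0.53 (SE, edgeR adjusted p = 1.00, DESeq2 adjusted p = 0.0118). Limma-voom did not call Nagpa (log2 fold change -2.28, adjusted p = 0.998), and its adjusted p in the authors' deposited comparison was 0.9999 (-2.28). Without shThoc5 replicate 1, which leaves 1 silenced library, edgeR called Nagpa among 0.34% of the genes tested, at a log2 fold change of -3.22. Without shNT replicate 1, shNT replicate 2 or shThoc5 replicate 2 it was not called, at -1.91, -2.31 and -1.53. Among the other lysosomal proteins, Plbd2 had the largest value at -0.50, with 205 and 206 CPM in shNT and 159 and 131 CPM in shThoc5, followed by Sumf1, the activator of lysosomal sulfatases, at -0.44. The largest values of the remaining lists were Igf2r (-0.41), Rragd (0.46), Flcn (-0.42), Atg9a (-0.42) and Wipi1 (-0.34), all with an edgeR adjusted p of 1.00.

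The RIP-seq libraries addressed which transcripts come down with either THO subunit. Enrichment is given as log2 of the precipitated CPM over the input CPM after 0.5 CPM had been added to each. CPM of these libraries are read counts scaled to the library total, and the call of an enriched transcript needed a value of 1 or more beside 10 reads and 1 CPM or more in the precipitated library. The Thoc2 and Thoc5 values of a passage share its input. There was 1 library of each kind, so there is no replicate check and no test, and the 95% intervals given (exact) reflect counting error alone. No lysosomal transcript reached the threshold in any of the immunoprecipitates. The count was 0 of 33 with Thoc2 at passage 3, where 19.8% of the genes detected were enriched, and 0 of 33 with Thoc5, where 24.6% were. At passage 10 it was 0 of 32 with Thoc2 (12.6% of genes) and 0 of 32 with Thoc5 (6.12%). Ctss was not listed at passage 10. In the authors' deposited lists of selected genes, 0 of the 33 were present for either antibody at either passage.

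The lysosomal transcripts lay below the middle of all genes in each immunoprecipitate. Their median log2 enrichment was -0.72 with Thoc2 at passage 3, beside -0.04 over all genes detected, and 31 of the 33 were below that all-gene median. With Thoc5 at passage 3 the median was -0.08 beside 0.28 over all genes, with 24 of 33 below. At passage 10 it was -0.37 beside 0.00 with Thoc2, with 24 of 32 below, and -0.12 beside 0.06 with Thoc5, with 22 of 32 below. Markers of other cells differed between the passage 3 input and its immunoprecipitates. Heart muscle markers summed to 8.15 CPM in that input, 176 CPM with Thoc2, where 7 of 7 with a value were enriched, and 35.6 CPM with Thoc5, where 6 of 6 were. Adventitial fibroblast markers summed to 3025 CPM in the input, 1341 CPM with Thoc2 and 2153 CPM with Thoc5. Ly6a and Serpinf1 gave 1491 and 1396 CPM of the input sum. Of the adventitial markers with a value, 5 of 7 were below the input with Thoc2, where 6119 of 11889 genes detected were. With Thoc5 4 of 6 were, where 4836 of 12461 genes were. The part of either marker list in the lysosomal values was not tested. Transcripts at least 2-fold lower than the input, a rule added after the values were seen, numbered 8 of 33 with Thoc2 at passage 3 (22.6% of all genes) and 1 of 33 with Thoc5 in the same cells (13.4%). In the later cells they numbered 1 of 32 with Thoc2 (7.53%) and 0 of 32 with Thoc5 (4.72%). The 8 were Ctsb, Ctsh, Ctsa, Lipa, Ppt1, Npc2, Lamp2 and Tfeb. With ribosomal RNA left out of the library totals, which moves the median of all genes with Thoc2 at passage 3 from -0.04 to 0.22, their number was 3. The share of all genes at least 2-fold lower under those totals is not given.

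**Figure D2:**
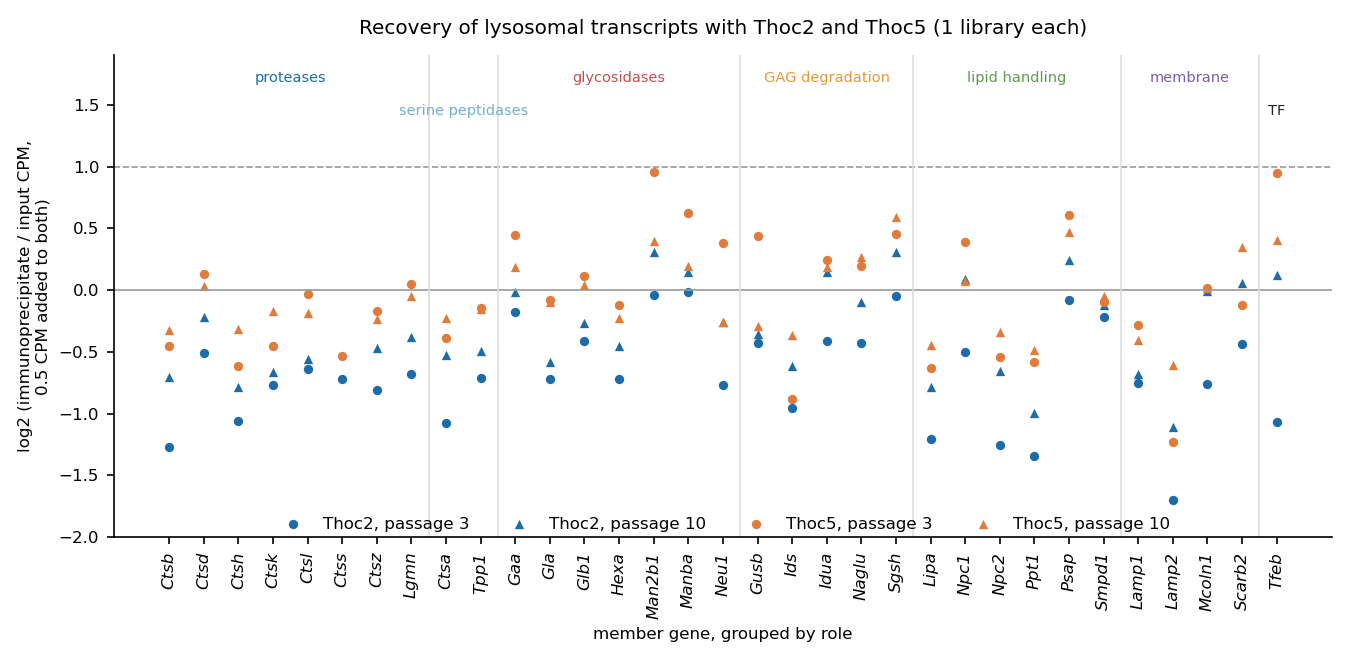
Log2 ratio of immunoprecipitate to input CPM for each lysosomal transcript, grouped by role, with blue for Thoc2, orange for Thoc5, circles for passage 3 and triangles for passage 10 (1 library each). The dashed line marks the 2-fold threshold, which no point reaches, and Lamp2 is the lowest gene in each immunoprecipitate.

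Lamp2 was the lowest lysosomal transcript with each antibody at each passage. At passage 3 its level was 555 CPM in the input, 170 CPM with Thoc2 and 237 CPM with Thoc5. Both were below the input, at ratios of 0.307 (95% interval 0.287 to 0.328) and 0.426 (0.404 to 0.450). At passage 10 the levels were 325 CPM in the input, 150 CPM with Thoc2 and 213 CPM with Thoc5, or log2 ratios of -1.11 and -0.61. The related Lamp1 was also below the input, with log2 ratios of -0.75 and -0.28 at passage 3 and -0.68 and -0.41 at passage 10. Scarb2 had Thoc2 values of -0.44 and 0.06 and Thoc5 values of -0.12 and 0.35 at passages 3 and 10. Mcoln1 had Thoc2 values of -0.76 and -0.01 and Thoc5 values of 0.02 at both passages.

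Among the proteases, Ctsb and Ctsh were below the input in each immunoprecipitate. Ctsb stood at 1649 CPM in the passage 3 input, at 682 CPM with Thoc2 and at 1203 CPM with Thoc5. At passage 10 it stood at 1297 CPM in the input, at 796 CPM with Thoc2 and at 1038 CPM with Thoc5, so all 4 immunoprecipitates were below their input. Ctsh had Thoc2 values of -1.06 and -0.78 at passages 3 and 10 and Thoc5 values of -0.62 and -0.32. Ctsd had Thoc2 values of -0.51 and -0.22 and Thoc5 values of 0.13 and 0.03. The medians of the 8 proteases with Thoc2 and Thoc5 were -0.74 and -0.31 at passage 3, and those of the 7 listed at passage 10 were -0.55 and -0.19.

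The lipid-handling transcripts were divided between low and high recovery. Ppt1 was second lowest of all with Thoc2, at 158 CPM in the passage 3 input against 61.9 CPM (ratio 0.392, 95% interval 0.350 to 0.438), and at 113 against 56.5 CPM at passage 10. Its span overlaps that of the abundant gene Cap1 by 128 bases, so its reads are less certain. Npc2 and Lipa had Thoc2 values of -1.25 and -1.21 at passage 3. Psap was at the other end, with 1461 CPM in the passage 3 input, 1384 CPM with Thoc2 and 2224 CPM with Thoc5, a Thoc5 ratio of 1.52 (95% interval 1.49 to 1.55). At passage 10 Psap stood at 2236 CPM in the input, 2653 CPM with Thoc2 and 3090 CPM with Thoc5, and its Thoc5 value of 0.47 was the second highest among the lysosomal genes. Npc1, whose span overlaps that of Rmc1, had Thoc2 values of -0.51 and 0.09 and Thoc5 values of 0.39 and 0.07 at passages 3 and 10. Smpd1 had Thoc2 values of -0.22 and -0.12 and Thoc5 values of -0.10 and -0.05.

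With library totals and 0.5 CPM added, the highest lysosomal value in each immunoprecipitate was that of a glycosidase or an enzyme of glycosaminoglycan degradation. The groups were not high as a whole, as Gla, Hexa and Ids were below the input in each immunoprecipitate. Outside them, Tfeb (0.95) and Psap (0.61) were also high with Thoc5 at passage 3. Tfeb was above Man2b1 there under TMM factors (0.72 against 0.70) and with 0.1 CPM added (1.01 against 0.96). Man2b1 stood at 78.3 CPM in the passage 3 input, 76.2 CPM with Thoc2 and 152 CPM with Thoc5. Its Thoc5 ratio of 1.94 (95% interval 1.80 to 2.09) and log2 value of 0.95 were just short of the threshold, and 74.1% of all genes detected were lower. At passage 10 it stood at 59.1 CPM in the input, 73.5 CPM with Thoc2 and 77.8 CPM with Thoc5. Manba, the beta-mannosidase, had the highest Thoc2 value at passage 3, at 18.7 CPM in the input against 18.5 CPM, so the highest was level with the input, and with ribosomal RNA left out of the totals the highest lysosomal value was 0.25. Sgsh, the sulfamidase of heparan sulfate, had the highest Thoc5 value at passage 10, at 56.3 CPM in the input against 85.3 CPM (ratio 1.52, 95% interval 1.38 to 1.66), with spans of Card14 and Slc26a11 overlapping it. Ids, the iduronate sulfatase, stood at 57.8 CPM in the passage 3 input against 29.6 CPM with Thoc2 and 31.1 CPM with Thoc5. With Thoc5 at that passage it was the only 1 of the 5 enzymes of glycosaminoglycan degradation below the input. With Thoc2 at that passage all 5 were below it, Ids the lowest. The group medians with Thoc5 were 0.38 for glycosidases and 0.25 for glycosaminoglycan degradation at passage 3, and 0.04 and 0.19 at passage 10.

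Tfeb gave the widest gap between antibodies. At passage 3 it stood at 4.43 CPM in the input, 1.85 CPM with Thoc2 (10 reads) and 9.04 CPM with Thoc5 (54 reads). The Thoc2 ratio was 0.418 (95% interval 0.197 to 0.789) and the Thoc5 ratio 2.04 (1.47 to 2.79). With 0.5 CPM added the Thoc5 log2 value was 0.95, which was not called. With 0.1 CPM added 1 lysosomal gene was called with Thoc5 at passage 3, Tfeb, where 26.0% of all genes were. With ribosomal RNA left out of the totals 2 were, Tfeb and Man2b1, where 27.1% of all genes were. At passage 10 Tfeb stood at 32.7 CPM in the input, 35.6 CPM with Thoc2 and 43.5 CPM with Thoc5, both near the input.

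From passage 3 to passage 10 the log2 enrichment with Thoc2 was higher for 32 of the 32 lysosomal transcripts measured at both, where 57.8% of 10957 genes were higher, and their median difference was 0.33 beside 0.11 over all genes. With ribosomal RNA left out of the totals it was higher for 21 of the 32, where 39.4% of all genes were. The median difference over all genes was then -0.15. Relative to the median difference of all genes, 27 of the 32 were higher under either scaling. With Thoc5 the median difference was -0.04 beside -0.15 over all genes. Above 0 were 13 of 32 (40.0% of all genes), and 24 of 32 were above the all-gene median. Under TMM factors the median difference with Thoc5 was 0.17 beside 0.06 over all genes. Above 0 were then 25 of 32 (53.5% of all genes), and 25 of 32 were above the all-gene median. The SD over the transcripts was 0.42 at passage 3 and 0.39 at passage 10 with Thoc2.

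Gene length is a property along which all genes differed in recovery. Across all genes with a length in the authors' deposited table, Spearman's rho of length with log2 enrichment was 0.57 for Thoc2 and 0.41 for Thoc5 at passage 3. At passage 10 it was 0.61 and 0.58. Across the 32 lysosomal genes with a length (1393 to 5209 bases, median 2779) rho was 0.05, 0.18, 0.18 and 0.07 in the same order. The points of each correlation share 1 immunoprecipitate and 1 input. The median length over all genes was close, at 2803 to 2849 bases, but their range was wider, at 30 to 23242 bases at passage 3. The rho values of the lysosomal genes and of all genes are therefore over unlike ranges of length.

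The related gene lists covered wider ranges than the 33 genes, such as -2.87 to 1.13 for the V-ATPase with Thoc2 at passage 3 beside -1.70 to -0.01. With Thoc2 at passage 3, 2 of 17 V-ATPase subunits, 0 of 33 other lysosomal proteins, 3 of 13 sorting genes, 2 of 17 genes of the MiT/TFE and mTORC1 list and 5 of 25 autophagy genes were enriched, where 19.8% of all genes were. With Thoc5 at passage 3 the counts were 2, 1, 3, 5 and 4 in that order, where 24.6% of all genes were enriched. At passage 10 they were 0, 0, 3, 5 and 2 with Thoc2 (12.6% of all genes) and 0 in each list with Thoc5 (6.12% of all genes). The other lysosomal proteins had medians of -0.57, -0.17, -0.26 and -0.13 in the 4 immunoprecipitates (Thoc2 and Thoc5 at passage 3, then at passage 10). Among V-ATPase subunits the lowest was Atp6v1g1, at -2.87, -2.04, -1.32 and -1.02 in that order.

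The related-list transcripts enriched in 3 immunoprecipitates came from the sorting, MiT/TFE and mTORC1, and autophagy lists. The share of all genes enriched in 3 is not given, and the lengths of these transcripts were not set beside their values. Mtor, the kinase of mTORC1, had values of 2.42 with Thoc2 and 1.98 with Thoc5 at passage 3, and of 1.79 and 0.90 at passage 10. Its partner Rptor had values of 1.60 and 1.07, then 1.38 and 0.91. The autophagy kinase Ulk1 had 1.26 and 1.15, then 1.22 and 0.88, and Pik3r4, the regulatory subunit of the Vps34 complex, had 1.10 and 1.12, then 1.16 and 0.61. Igf2r, the large mannose 6-phosphate receptor, had 1.56 and 1.32, then 1.05 and 0.74, and Gga3, an adaptor for that receptor, had 1.33 and 2.83, then 1.28 and 0.54. The spans of Igf2r and Gga3 overlap those of Airn and Mrps7. In the authors' deposited lists Mtor had a score of 0.999 for Thoc2 at passage 3 and Gga3 a score of 1.00 for Thoc5 at passage 3. These were the only entries of the related lists at passage 3, so Rptor, Ulk1, Pik3r4 and Igf2r were in neither list. For Thoc2 at passage 10 Mtor, Rptor, Ulk1, Pik3r4, Igf2r and Gga3 were all listed, with scores from 0.764 (Igf2r) to 1.00 (Mtor). That list held 16.9% of the genes in its table, beside 7.15% and 6.24% for Thoc2 and Thoc5 at passage 3. At the low end of the related gene lists were Vps29 of the retromer (-2.12), Lamtor2 of the Ragulator complex (-2.63), Laptm4a (-2.14) and Map1lc3a (-2.01), all with Thoc2 at passage 3.

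**Figure D3:**
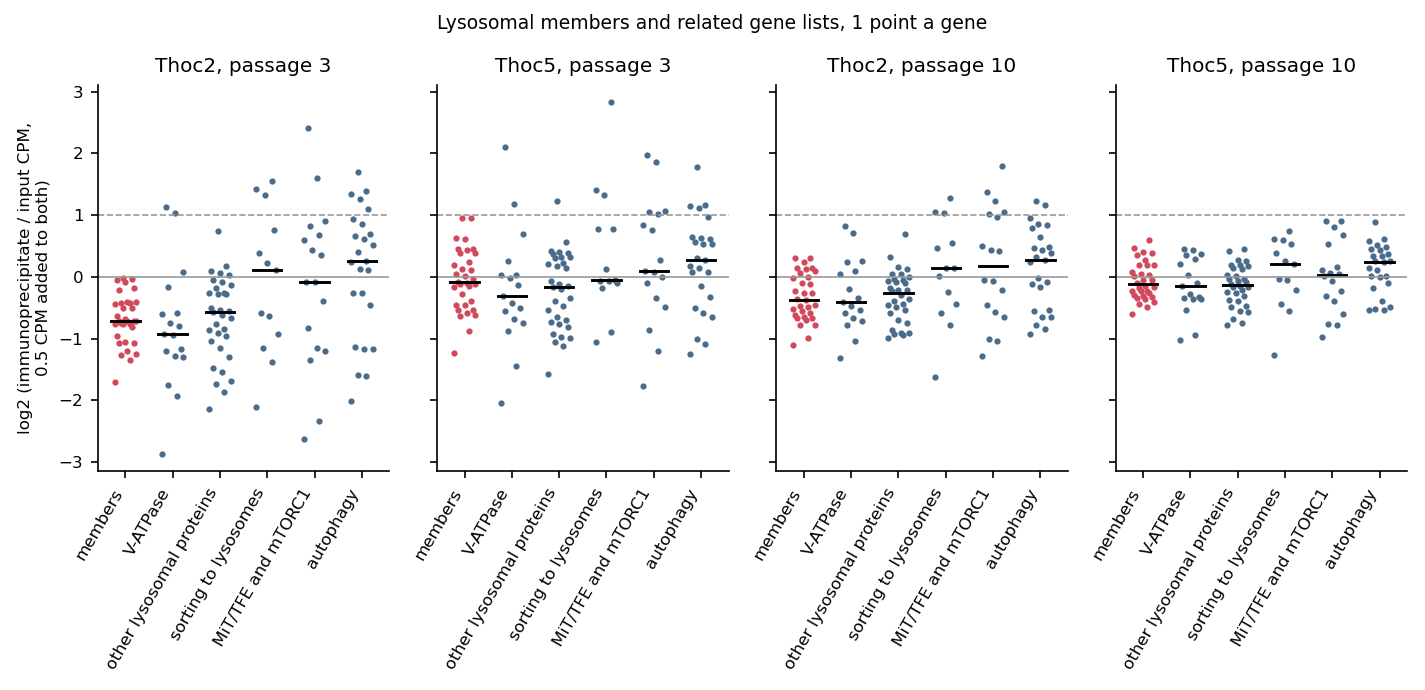
Log2 ratio of immunoprecipitate to input CPM for the lysosomal members (red) and for the 5 related lists (blue), 1 point a gene and a black bar at the median, with a panel for each antibody and passage. The members stay below the dashed 2-fold threshold in each panel, while genes of the sorting, mTORC1 and autophagy lists lie above it in all panels but that of Thoc5 at passage 10.

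The inputs addressed how the lysosomal transcripts differ between passage 3 and passage 10, with 1 library a passage and no test. On CPM of the library totals the median of all genes was itself 0.43 higher at passage 10 on the log2 scale, and under TMM factors it was -0.06, so the members are given beside that median. The median log2 difference of the 33 lysosomal genes was 0.11, and 18 of the 33 lay below the all-gene median under either scaling. At least 2-fold higher at passage 10 were 7 of 33, where 31% of 13459 genes were, and at least 2-fold lower were 2 of 33, where 17% were. Under TMM factors 2 were higher (18.8% of genes) and 7 lower (24.3%).

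Tfeb had the largest difference upward. It stood at 4.43 CPM in the passage 3 input and at 32.7 CPM in the passage 10 input, a ratio of 7.37 (95% interval 6.19 to 8.82), and it remained 2-fold higher under TMM factors at a log2 value of 2.29. All 5 enzymes of glycosaminoglycan degradation were higher in CPM, led by Gusb at 35.2 against 104 CPM, Sgsh at 20.7 against 56.3 CPM and Ids at 57.8 against 148 CPM. Of these, Gusb remained 2-fold higher under TMM factors, at 1.07, and the others did not. The sialidase Neu1 stood at 32.8 against 85.0 CPM, Npc1 at 34.9 against 77.2 CPM and Lamp1 at 699 against 1435 CPM. All 3 were past 2-fold in CPM but not under TMM factors.

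Scarb2 and Ctss were lower at passage 10 under either scaling. Scarb2 stood at 129 CPM at passage 3 and at 36.3 CPM at passage 10, a 3.54-fold lower level. Ctss had 643 reads (17.7 CPM) in the passage 3 input and was unlisted at passage 10, where an unlisted gene has at most 10 reads (0.525 CPM), so it was at least 33.7-fold lower. Lamp2 differed from Lamp1 in direction, at 555 against 325 CPM, and the soluble proteins Tpp1 (320 against 183 CPM), Ctsk (58.5 against 34.8 CPM), Ctsz (634 against 392 CPM) and Npc2 (1049 against 665 CPM) were lower too. These 5 were past 2-fold lower under TMM factors. The most abundant gene, Ctsd, was near level at 2287 against 2691 CPM, and Ctsh stood at 238 against 240 CPM.

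Markers of macrophages, which are rich in lysosomal enzymes, moved with the passage. The summed level of 14 macrophage markers was 297 CPM in the passage 3 input and 54.6 CPM in the passage 10 input. One of the 14 was unlisted at passage 3 and 10 were unlisted at passage 10, among them Ptprc, Adgre1, Itgam, C1qa, C1qb and C1qc. Of the 13 with a value, 12 were at least 2-fold lower at passage 10. Their part in the differences of Ctss and the other lysosomal genes was not tested. In the RNA-seq libraries the same markers summed to 14.9 to 22.1 CPM, of which Cd14 gave 11.7 to 18.7 CPM, and Ptprc was at 0 to 0.0491 CPM. Endothelial markers were also lower, with 6 of 8 at least 2-fold lower at passage 10. Of the adventitial fibroblast markers with a value, 5 of 7 were at least 2-fold lower, and the list's summed level was 3025 CPM at passage 3 and 602 CPM at passage 10. The part of either list in the lysosomal values was not tested. In such bulk libraries fewer cells of a type and less RNA per cell cannot be told apart.

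**Figure D4:**
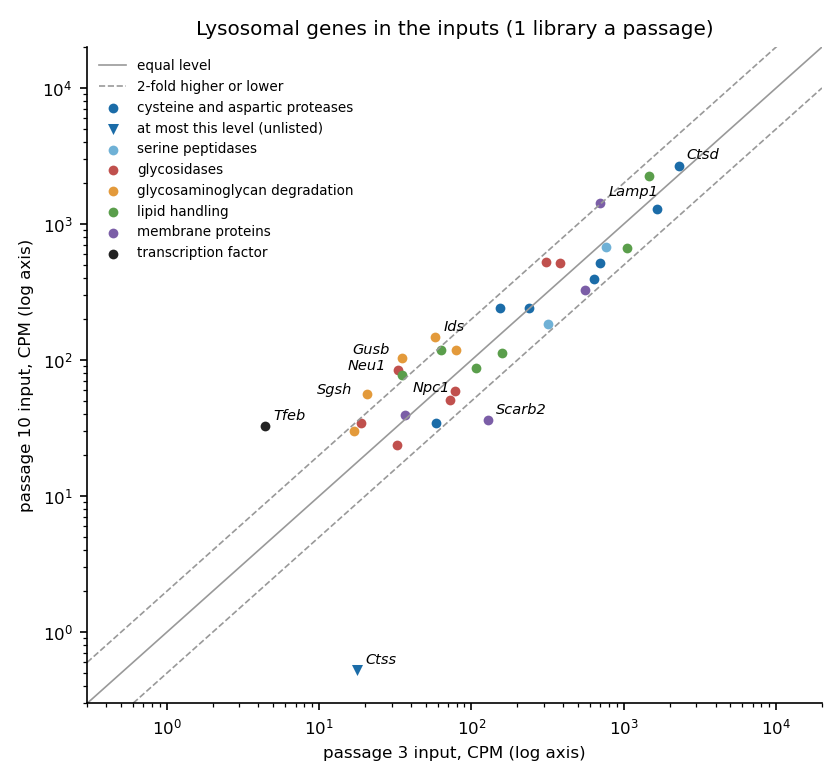
Level of each lysosomal gene in the passage 3 input (horizontal) and the passage 10 input (vertical), in CPM on log axes and coloured by role, with dashed lines at 2-fold and a triangle for Ctss at the highest level an unlisted gene can have. Tfeb lies farthest above the line of equal level, and Ctss and Scarb2 lie farthest below it.

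The related lists in the inputs were compared with the same rule. Of 17 V-ATPase subunits 2 were at least 2-fold higher, where 31% of all genes were, and 1 was lower, where 17% were, with a median of 0.25. The largest values were those of Atp6v0c (30.8 against 124 CPM) and Atp6v0a1 (40.0 against 147 CPM). Of 33 other lysosomal proteins 6 were higher and 3 lower, with Ctns, the cystine exporter, at 10.4 against 49.5 CPM and Ctsc, the activator of leukocyte granule proteases, at 23.2 CPM at passage 3 and unlisted at passage 10. Sorting genes had 4 of 13 higher and 0 lower (Gga2 at 1.66 and Sort1 at 1.53), and autophagy genes 7 of 25 higher and 0 lower (Uvrag at 2.37 and Ulk2 at 1.55). The MiT/TFE and mTORC1 list had 4 of 19 higher and 1 lower, with Rragb at 0.468 against 7.56 CPM and Tfec, the relative of Tfeb known from macrophages, at 2.28 CPM and then unlisted. The medians of the sorting, MiT/TFE and autophagy lists were 0.71, 0.43 and 0.75, beside 0.43 over all genes. Under TMM factors (18.8% of all genes higher and 24.3% lower) the V-ATPase list had 2 higher and 2 lower and the other lysosomal proteins 3 higher and 6 lower. The sorting list then had 2 higher and 0 lower, the MiT/TFE and mTORC1 list 2 higher and 4 lower, and the autophagy list 3 higher and 1 lower. The medians under TMM factors were -0.23, -0.25, 0.24, -0.05 and 0.27 in that order, beside -0.06 over all genes.

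The genes with CACGTG in the 250 bases before the start were set beside those without it. In the inputs the 11 genes with the motif had a median log2 difference of 0.24 (from -0.49 to 1.42) on CPM of the library totals. The 19 without it had -0.29 (up to 2.75 for Tfeb, with Ctss, unlisted at passage 10, the lowest). Both medians were below the 0.43 of all genes on this scale. Under TMM factors, where the median of all genes was -0.06, the medians with and without the motif are not given. After silencing of Thoc5 the medians were -0.11 for the 11 and -0.04 for the 18 tested genes without it. The ranges overlapped in both comparisons, and Tfeb itself was among the genes without the motif.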

How the data were processed

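RNA-seq libraries (4) and RIP-seq libraries (6) were analysed, and the 2 ChIP-seq libraries were left out as not analysed here. The submitters' processing notes name Subread and featureCounts with the mm9 build, and limma. The tool behind each table was not given in the sources used here in any other detail. The deposited RNA-seq table holds raw read counts per gene, and the deposited RIP-seq tables hold raw read counts of input and immunoprecipitate, both per the file headers. The authors' deposited comparison holds a log2 fold change and p-values per gene with a gene length. The deposited RIP-seq tables also hold a normalized signal, the authors' ratio of immunoprecipitate to input and, for the genes the authors selected, a score of at least 0.3. The counting of strands is not stated, and the TruSeq V2 kit named in the labels does not mark strand, so genes with overlapping spans are less certain.

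Counts of all genes were compared with edgeR 4.0.16 in R 4.3.3 (filterByExpr, TMM, quasi-likelihood test, Benjamini-Hochberg adjustment over 13569 genes, threshold 0.05), a procedure tested on simulated data. DESeq2 1.42.0 and limma-voom (limma 3.58.1), other scalings and filters, the replicate number as a block and the omission of each library were alternatives. P-values rest on library-to-library spread, which may be only technical. RIP-seq tables omit genes with fewer than 11 summed reads, and genes unlisted at a passage entered the input comparison as 0 reads. Ratios carry exact 95% intervals, and PCR reads are not independent molecules, so intervals cover counting error only. For the input comparison a gene needed at least 10 reads and 1 CPM in either input.

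The 33 genes, the related lists and the marker lists were chosen with earlier results of these data known. Any of the 33 could be named. Fitted fold changes with their errors were given for genes past a threshold and for the 6 largest among those whose groups did not overlap. Of RIP-seq the 2 highest and 2 lowest per immunoprecipitate were named, and of each related list the genes past a threshold, those enriched in 3 or more immunoprecipitates and the 2 largest values per comparison. The rule for transcripts at least 2-fold lower than input was added after the values were seen. Further values of the 33 are given to describe each role group. RefSeq tables for GRCm38.p6 gave symbols, overlaps and promoter sequences, and 24473 of 26301 RNA-seq identifiers matched a symbol.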

Additional observations from a re-analysis of the deposited data

Results flagged for a closer look

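For 4 of the lysosomal genes the interval of the ratio of immunoprecipitate to input lay on opposite sides of 1 at the 2 passages with the same antibody. Psap had a log2 value with Thoc2 of -0.078 at passage 3 and 0.25 at passage 10. Gusb had a log2 value with Thoc5 of 0.44 at passage 3 and -0.29 at passage 10, and Neu1 had 0.38 and -0.26. Scarb2 went the other way with Thoc5, at -0.12 and 0.35. The passage 3 value of Psap was above 0 with ribosomal RNA left out of the library totals (0.19) and with TMM factors (0.018), so its opposite signs depend on the scaling, while Gusb, Neu1 and Scarb2 kept theirs under both. With 1 library per passage and antibody these differences were not tested.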

How the results depend on the processing

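The counts of lysosomal genes called after silencing of Thoc5 were 0 under each alternative run, and their median log2 fold change ranged from -0.05 to -0.12 over them. Over the omissions of a library it ranged from -0.12 to -0.05. With the replicate number as a block edgeR called 511 genes (3.77%) and 0 of the 32, and the median was -0.10. Of the 32, 8 had an unadjusted p under 0.05 in that fit. The share of all genes at that unadjusted p is not given, so the 8 are not read as a result. Nagpa was called with the block too (-2.21, adjusted p = 0.00309). It was not called in edgeR under DESeq2 size factors, library totals or the other filters on low counts. The labels do not pair the libraries by number and there are only 2 pairs, while the difference between replicates 2 and 1 correlated between the groups at 0.677 across 13569 genes. The omission of shThoc5 replicate 1 let 47 genes pass, none of the 33. In RIP-seq, transcripts at least 2-fold lower than input with Thoc2 at passage 3 numbered 3 with ribosomal RNA left out of the totals and 5 with TMM factors. With Thoc5 at passage 3, 1 gene was enriched with 0.1 CPM added (26.0% of all genes) and 2 with ribosomal RNA left out (27.1% of all genes). At a 1.5-fold threshold 4 were, while TMM factors gave 2 genes at least 2-fold lower and a median of -0.33, beside 0.04 over all genes. With Thoc5 at passage 10 a 1.5-fold threshold gave 1 enriched gene. The shares of all genes at the 1.5-fold threshold, and for the 2-fold lower calls under these scalings, are not given, so those counts have no background. Between the inputs TMM factors gave 2 higher (18.8% of all genes) and 7 lower genes (24.3%) and a median of -0.37, beside -0.06 over all genes. By construction the scalings shift all genes of a library alike, the 1.5-fold setting lowers the threshold and the smaller added CPM raises ratios above 1. Under TMM factors the median passage difference with Thoc5 was 0.17, against -0.04. Of the other counts of calls and medians over the lysosomal genes recomputed in these comparisons, 112 values were within their spread or 1.5 times the main count. Leaving out genes with overlapping spans moved no median beyond its spread. The passage 3 immunoprecipitates were the shallowest libraries, and Tfeb had 10 reads with Thoc2 there.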
